A study of Mus musculus with 17 samples.

Results

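This is an account of p53 and 31 genes listed as its direct targets, 32 genes in all of the 53313 genes counted in every library. Whether p53 acts on each of them in these mouse cells and kidneys was not tested. The genes were taken from a fixed list and matched by symbol to their Ensembl identifiers, and all 32 were found. All libraries came from wild-type (WT) C57BL/6Rj mice (spelled C57BL/6JRj in the methods of the study), and no gene was manipulated. Primary tubular epithelial cells (PTEC) are grown out from tubular fragments of collagenase-digested kidneys. In 4 cultures they were sampled at day 6 without irradiation and are called non-senescent here, and in 4 cultures at day 16 after γ-irradiation with 10 Gray, which the study used to induce senescence. Whole kidney RNA came from untreated male mice, with 3 mice each at 3, 12 and 24 months of age.

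The protein p53, encoded by Trp53, is a transcription factor that accumulates and becomes active when DNA is damaged. It binds pairs of short half-sites near its target genes and raises their transcription. The targets halt the cell cycle, repair DNA or start cell death, and 1 of them, Mdm2, encodes the ubiquitin ligase that removes p53, so that the pathway limits itself. A lasting p53 response is a known feature of senescent cells, which stop dividing but stay alive.

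Non-senescent PTEC had 26963442 to 32838856 reads on genes per culture and senescent PTEC 29041073 to 35409144. Kidneys had 37311247 to 49471409 reads at 3 months, 54097073 to 59718029 at 12 months and 62761670 to 66894790 at 24 months, so depth rose with age. Irradiation and time in culture changed together and cannot be told apart. The kidneys of 3 months were counted on another gene set than the older ones, which cannot be told apart from age. The entries of Pmaip1, Ei24 and Fas carried another version in the set of the older kidneys. In the kidneys, fewer cells of a type and less RNA per cell cannot be told apart. Culture replicate 3 at day 6 correlated least with its group (r from 0.966 to 0.974 over genes), and so did kidney replicate 2 at 12 months (0.977 to 0.979, against 0.997 between the other two) and kidneys 2 and 3 of 3 months with each other (0.967). The labels do not say that the PTEC replicates were grown from separate mice, so their p-values measure the spread between these cultures, which may be technical.

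The 32 genes took 0.311%, 0.3%, 0.287% and 0.290% of the reads in the 4 cultures of non-senescent PTEC and 0.515%, 0.513%, 0.568% and 0.518% in senescent PTEC. These 2 groups did not overlap. In kidneys the share was 0.122%, 0.108% and 0.123% at 3 months, 0.105%, 0.118% and 0.103% at 12 months and 0.135%, 0.15% and 0.126% at 24 months. The 24-month-old kidneys all lay above the younger ones, whose ranges overlapped. Abundant genes weigh most in this share, so it does not say how many of the 32 genes rose. Ccng1 alone held 10385 of 45569, 12146 of 53381 and 13727 of 55130 reads on the 32 genes at 3 months. At 12 months it held 12170 of 62870, 14422 of 68492 and 11390 of 55693. At 24 months it held 25520 of 88095, 29965 of 94326 and 25998 of 84182.

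**Figure D1:**
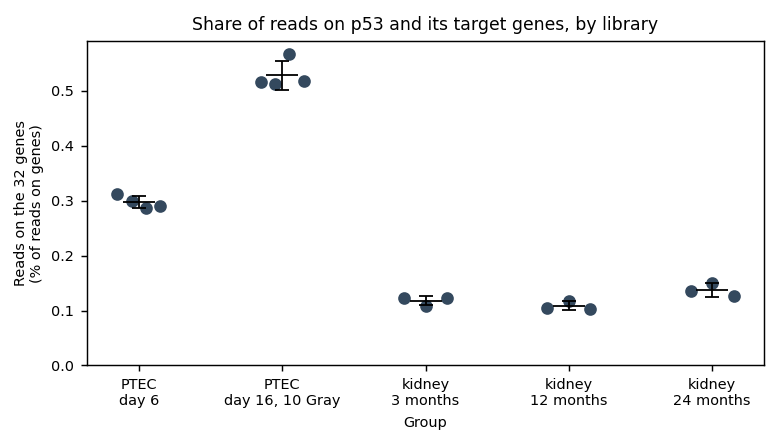
Share of the reads on genes that fell on p53 and its targets (vertical axis, percent) in the 5 groups (horizontal axis). Each point is a library, and the bars are the mean and SD of 4 cultures or 3 kidneys. Non-senescent PTEC lie at 0.287% to 0.311%, senescent PTEC at 0.513% to 0.568% and kidneys at 0.103% to 0.15%.

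Levels per length of transcript (TPM) put the genes on a common scale. In non-senescent PTEC the highest level was that of the cyclin G1 gene Ccng1, at 601 ± 125 TPM (mean ± SD, n = 4). The next 3 genes, Plk2 (265 ± 45.8 TPM), Ddit4 (256 ± 26.2 TPM) and Bax (248 ± 58.2 TPM), did not differ beyond their spread, and Trp53 stood at place 8 with 138 ± 28.8 TPM. In senescent PTEC Ccng1 reached 1362 ± 195 TPM, followed by Phlda3 with 627 ± 79.5 TPM and Pmaip1 with 519 ± 100 TPM. The lowest level in non-senescent PTEC was that of Fas, at 5.18 ± 0.667 TPM, and in senescent PTEC that of Ddb2, at 7.38 ± 1.04 TPM. In 3-month-old kidneys the order was led by Dcxr, at 382 ± 43.7 TPM (n = 3), a reductase gene that stood at 38.4 ± 13.3 TPM in non-senescent PTEC. Ccng1 followed with 183 ± 5.92 TPM, and Trp53 stood at 9.98 ± 2.36 TPM. Psrc1 and Eda2r were the lowest, at 0.279 ± 0.104 and 0.296 ± 0.108 TPM, and these neighbours did not differ beyond their spread.

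The 250 bases before the RefSeq starts (GRCm38.p6) were searched for the p53 half-site, a consensus of 10 bases that reads the same on both strands. It is RRRCWWGYYY, where R is A or G, W is A or T and Y is C or T. A window was matched for 24 of the 32 genes. Perp, Xpc, Rrm2b, Zmat3, Ddb2, Tnfrsf10b, Pmaip1 and Trp53inp1 had no entry. An exact half-site lay in the windows of 9 genes (Trp53, Mdm2, Ccng1, Gadd45a, Bax, Ei24, Aen, Sesn1 and Polk). By window this was 26.5% of 34, where 7.13% of all 32851 windows hold one. No window of the 32 genes held 2 exact half-sites with 0 to 13 bases between them, and 0.0639% of all windows did. With the C and G of both cores kept (CNNG) and at most 3 mismatches in all, a pair that did not overlap was found for 10 genes. Such a pair lay in 32.4% of the 34 windows of the 24 genes, against 13% of all windows. Of the 10 genes, the 6 called by edgeR with all libraries and no replicate block are shown. The 4 others were Trp53, Mdm4, Bax and Sesn1, of which Mdm4 and Sesn1 were called in fits with a block. A match is a description of letters, not a site that p53 was shown to bind here. The half-sites of the best pair are in capitals, with up to 30 bases on either side, 5′ to 3′ on the strand of the gene.
Ccng1 (chr11:40755432-40755511, - strand): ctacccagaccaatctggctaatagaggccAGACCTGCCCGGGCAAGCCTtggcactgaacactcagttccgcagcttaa
Gadd45a (chr6:67037408-67037493, - strand): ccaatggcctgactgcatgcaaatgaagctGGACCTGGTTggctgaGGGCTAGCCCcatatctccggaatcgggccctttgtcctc
Aen (chr7:78895907-78895986, + strand): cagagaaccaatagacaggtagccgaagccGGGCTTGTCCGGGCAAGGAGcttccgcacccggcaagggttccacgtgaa
Bbc3 (chr7:16309456-16309535, + strand): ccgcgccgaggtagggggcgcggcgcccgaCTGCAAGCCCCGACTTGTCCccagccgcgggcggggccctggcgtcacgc
Bbc3 (chr7:16310126-16310207, + strand): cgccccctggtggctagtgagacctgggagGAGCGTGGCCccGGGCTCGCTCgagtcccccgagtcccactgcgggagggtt
Dcxr (chr11:120727356-120727436, - strand): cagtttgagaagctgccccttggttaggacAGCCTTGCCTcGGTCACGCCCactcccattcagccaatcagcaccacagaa
Plk3 (chr4:117134140-117134213, - strand): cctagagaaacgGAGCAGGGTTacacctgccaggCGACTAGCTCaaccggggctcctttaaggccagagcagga
The pair before Ccng1 had 1 mismatch and no spacer, and that before Gadd45a had 2 mismatches and a spacer of 6 bases. The other pairs had 3 mismatches each.

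The first comparison asks how senescent PTEC differ from non-senescent PTEC. Of the 32 genes, 21 (65.6%) were up-regulated and 1 was down-regulated, called where the log2 fold change exceeded 0.5 in size and the adjusted p was under 0.05. The test was edgeR's quasi-likelihood test, here and for every adjusted p given. Over all 15434 genes tested, 20.1% were up-regulated and 19.7% down-regulated. The median log2 fold change of the 32 genes was 0.81, and that of all genes tested was 0.00. In 22 of the 32 genes every senescent culture lay above every non-senescent culture, and 22.1% of all genes tested had groups apart in this direction. Death receptor genes rose as a whole group (3 of 3, median log2 fold change 1.60). Cell cycle genes rose in 4 of 6, death effector genes in 5 of 8, growth, redox and RNA regulators in 5 of 7, and DNA repair genes in 3 of 5. Levels are CPM, which are counts put on 1 library size by TMM scaling, in the order of replicates 1 to 4, and fold changes carry the SE.

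Trp53 itself (chr11:69580359-69591873, + strand, GRCm38, as all positions here) was not up-regulated. Its transcript was at 186, 171, 180 and 112 CPM in non-senescent PTEC and at 113, 105, 150 and 137 CPM in senescent PTEC, and the groups overlapped (log2 fold change -0.36 ± 0.187, adjusted p = 0.146). Mdm2 (chr10:117688875-117710758, - strand), the ubiquitin ligase gene of the feedback loop, was at 220, 201, 154 and 177 CPM in non-senescent PTEC and 319, 306, 355 and 327 CPM in senescent PTEC, with no overlap. It was up-regulated (log2 fold change 0.80 ± 0.141, adjusted p = 0.00168). Mdm4 encodes an inhibitor that binds p53 without removing it. It was at 82, 82.9, 47.8 and 109 CPM and then at 63.9, 65, 60.8 and 74.2 CPM, within the range of the non-senescent cultures (log2 fold change -0.29 ± 0.217, adjusted p = 0.312).

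Of the cell cycle genes, Ccng1 gained the most reads. It rose from 678, 653, 508 and 578 CPM to 1370, 1302, 1102 and 1139 CPM (log2 fold change 1.02 ± 0.152, adjusted p = 0.000618). Btg2, an antiproliferative gene, rose from 83.6, 78.5, 101 and 127 CPM to 189, 172, 243 and 195 CPM (log2 fold change 1.04 ± 0.181, adjusted p = 0.00155). Gadd45a, a growth arrest gene whose upstream pair is shown above, rose from 40.9, 50.9, 67.8 and 49 CPM to 76, 80.9, 93.1 and 77.5 CPM (log2 fold change 0.65 ± 0.163, adjusted p = 0.00999). Exons of Gadd45a share 337 bases with a transcript on the opposite strand, and so do those of Plk3 (84), Ei24 (324), Rrm2b (734) and Ddb2 (652), so that their reads are uncertain if strand was not used in counting. Psrc1, which encodes a microtubule-associated protein, rose from 39.9, 37.3, 46.5 and 49.2 CPM to 74.2, 79.4, 91 and 78.2 CPM (log2 fold change 0.90 ± 0.132, adjusted p = 0.000587). In all 4 genes the groups did not overlap. Plk3 (chr4:117128655-117133963, - strand) and Plk2 encode polo-like kinases. Plk3 fell from 35.6, 28.6, 64.4 and 45.2 CPM to 12.6, 15.1, 19.1 and 10.6 CPM, every senescent culture below every non-senescent one (log2 fold change -1.59 ± 0.272, adjusted p = 0.00137). With all cultures and no block, edgeR called no other of the 32 genes down-regulated. Plk2 ranged from 270 to 407 CPM and then from 286 to 569 CPM (log2 fold change 0.36 ± 0.234, adjusted p = 0.243).

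Among the genes that act in cell death, Pmaip1 and Bbc3 encode the BH3-only proteins Noxa and Puma, which set off the mitochondrial path. Pmaip1 was at 134, 138, 125 and 136 CPM in non-senescent PTEC and at 312, 281, 430 and 446 CPM in senescent PTEC (log2 fold change 1.46 ± 0.171, adjusted p = 0.000167). Bbc3 was at 11, 11.5, 22.9 and 12.5 CPM and at 24.3, 23.5, 29.6 and 24.1 CPM (log2 fold change 0.81 ± 0.24, adjusted p = 0.0209). Replicate 3 was the highest in both groups of Bbc3, and the gene lost its call without replicate 1, 2 or 4 of day 6, with a log2 fold change of 0.70, 0.71 or 0.74 (adjusted p = 0.06, 0.0554 or 0.0527). Without both replicate 3 cultures the log2 fold change was 1.05 (adjusted p = 0.000482). Trp53inp1, a nuclear cofactor of p53, rose from 117, 136, 62 and 137 CPM to 260, 337, 200 and 247 CPM (log2 fold change 1.21 ± 0.258, adjusted p = 0.00449). Aen, a nuclease gene, rose from 84.2, 81.7, 85.4 and 74 CPM to 145, 147, 136 and 142 CPM with little spread (log2 fold change 0.81 ± 0.106, adjusted p = 0.000311). Perp, which encodes a membrane protein of desmosomes, was at 117, 97.5, 141 and 110 CPM and 151, 127, 222 and 165 CPM, with an overlap between groups (log2 fold change 0.51 ± 0.188, adjusted p = 0.0499). It stayed called in 2 of 8 fits that left out 1 culture and in 2 of 7 other settings, and without replicate 3 of day 16 its adjusted p was 0.127.

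Bax, the pore-forming protein of the mitochondrial path, was among the genes that did not pass. It was at 101, 97.1, 179 and 87.2 CPM and 109, 110, 151 and 112 CPM (log2 fold change 0.05 ± 0.232, adjusted p = 0.872), with replicate 3 the highest in both groups. Its exons share 192 bases with Gm45808 on the same strand, so that its reads are uncertain too. Pidd1, which encodes a scaffold that activates caspase-2, ranged from 10.9 to 12.6 CPM and then from 14.4 to 19.5 CPM. The groups did not overlap and the adjusted p was 0.0354, but its log2 fold change of 0.45 ± 0.151 was under the threshold. Ei24, which encodes a protein of the endoplasmic reticulum, also had groups apart, at 123 to 143 CPM and 143 to 158 CPM, with the edges equal only when rounded (log2 fold change 0.16 ± 0.108, adjusted p = 0.261).

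All 3 death receptor genes rose. Fas, the receptor of Fas ligand, was at 2.64, 2.66, 4.27 and 2.99 CPM in non-senescent PTEC and at 12.3, 11.8, 8.97 and 9.81 CPM in senescent PTEC, which was 3.41-fold higher (log2 fold change 1.77 ± 0.22, adjusted p = 0.000234). Eda2r, the receptor of ectodysplasin A2, rose from 48.7, 50, 30.3 and 54.6 CPM to 143, 164, 113 and 136 CPM, or 3.03-fold (log2 fold change 1.60 ± 0.197, adjusted p = 0.000222). Tnfrsf10b, the TRAIL receptor, rose from 50.3, 48.4, 39.8 and 50.8 CPM to 83.7, 73.9, 87.1 and 98.2 CPM (log2 fold change 0.86 ± 0.134, adjusted p = 0.000837). The groups of each receptor gene lay apart.

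The largest change of the 32 genes was that of Ak1, an adenylate kinase gene (chr2:32621758-32635058, + strand). It was at 16.1, 22, 14.9 and 12.8 CPM in non-senescent PTEC and at 115, 126, 111 and 104 CPM in senescent PTEC, or 6.93-fold higher (log2 fold change 2.79 ± 0.18, adjusted p = 5.19e-06). Phlda3, an inhibitor of Akt signaling, rose from 104, 94.8, 132 and 74.3 CPM to 248, 235, 312 and 217 CPM (log2 fold change 1.32 ± 0.193, adjusted p = 0.000573). Dcxr, which encodes a carbonyl reductase, rose from 8.36, 9.26, 21.7 and 13.2 CPM to 26.4, 23, 38.9 and 23.4 CPM (log2 fold change 1.09 ± 0.311, adjusted p = 0.018). Zmat3 encodes an RNA-binding zinc finger protein. It rose from 108, 119, 105 and 126 CPM to 242, 269, 187 and 224 CPM (log2 fold change 1.01 ± 0.141, adjusted p = 0.000455). Sesn2, a sestrin that restrains mTORC1, rose from 51.9, 62.4, 77.1 and 64.3 CPM to 107, 95.6, 110 and 110 CPM (log2 fold change 0.73 ± 0.138, adjusted p = 0.00242). In these 5 genes the groups did not overlap. The other sestrin, Sesn1, ranged from 11.5 to 20.8 CPM and then from 16.8 to 37.5 CPM (log2 fold change 0.63 ± 0.285, adjusted p = 0.0989). With the replicate number as a block, which pairs the cultures, Sesn1 was up-regulated (log2 fold change 0.59 ± 0.156, adjusted p = 0.0121), and all 4 pairs were higher. Ddit4, a further inhibitor of mTORC1, ranged from 105 to 163 CPM and from 86.6 to 177 CPM (log2 fold change -0.05 ± 0.241, adjusted p = 0.896).

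Of the repair genes, Polk, a translesion DNA polymerase gene, rose from 30.6, 31.4, 15.6 and 36.3 CPM to 73.3, 77.8, 66.5 and 73.8 CPM (log2 fold change 1.35 ± 0.229, adjusted p = 0.0013). Xpc, which recognizes damage in nucleotide excision repair, rose from 31.1, 32.4, 37.4 and 42 CPM to 71.3, 69.4, 65.2 and 66 CPM (log2 fold change 0.93 ± 0.13, adjusted p = 0.00045). Ercc5, the endonuclease gene of the same path, rose from 32.7, 34.4, 32.8 and 38.7 CPM to 63.6, 60.8, 70.4 and 61.4 CPM (log2 fold change 0.89 ± 0.117, adjusted p = 0.000329). The groups of all 3 lay apart. Ddb2, which also recognizes damage, was lower in every senescent culture and ranged from 6.52 to 9.67 CPM and then from 4.39 to 6.46 CPM (log2 fold change -0.55 ± 0.213, adjusted p = 0.0595). It did not pass the test. With the same block Ddb2 was called (log2 fold change -0.55 ± 0.175, adjusted p = 0.0257) and Perp fell under the fold threshold (0.49 ± 0.108). Rrm2b, the p53-inducible subunit of ribonucleotide reductase, ranged from 18.9 to 37.9 CPM and from 32.8 to 48.9 CPM (log2 fold change 0.46 ± 0.216, adjusted p = 0.112).

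**Figure D2:**
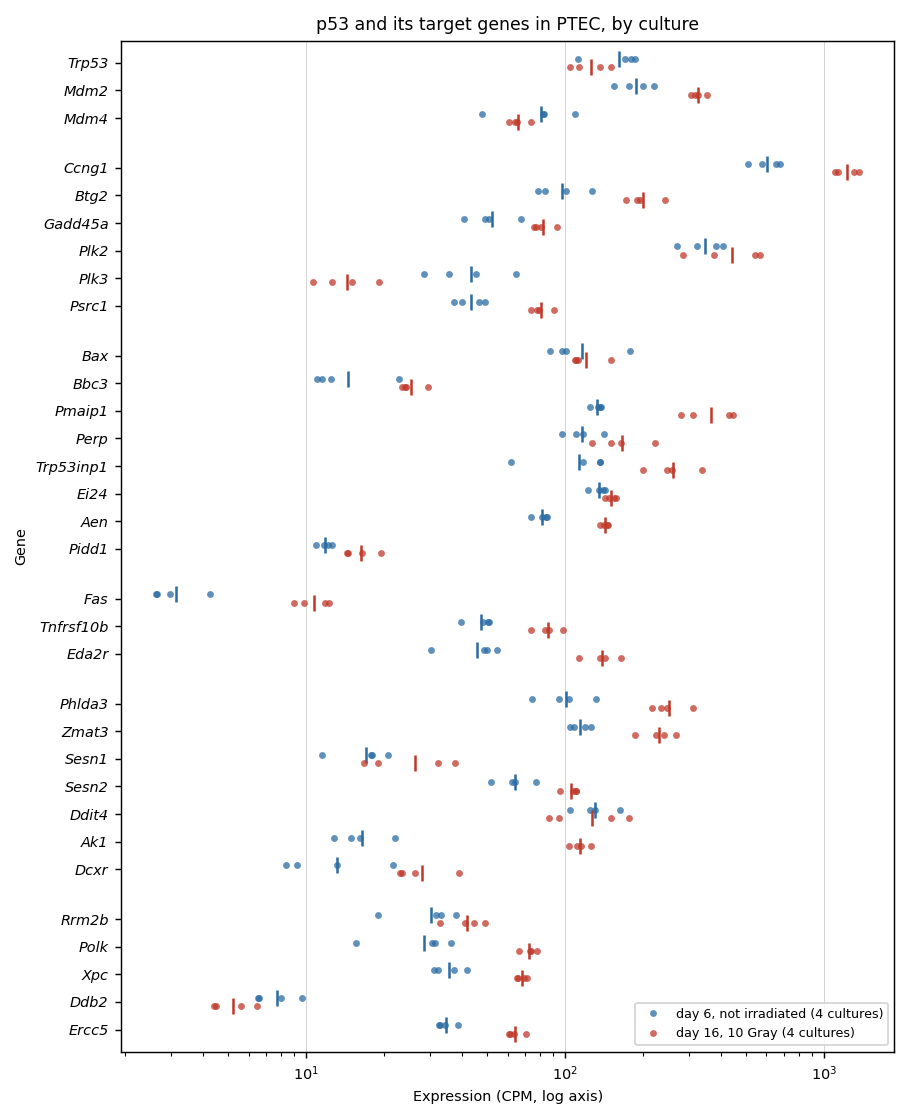
Expression of the 32 genes (rows, grouped by role) in PTEC, in CPM on a log axis. Points are the 4 cultures of each group, blue for non-senescent (day 6) and red for senescent (day 16 after 10 Gray), and ticks are group means. The red points of Ak1 (104 to 126 CPM) lie clear of the blue ones (12.8 to 22 CPM), while those of Trp53 and Bax overlap with them, and those of Plk3 lie below.

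Cell type markers moved in the same cultures. All 14 proliferation genes were down-regulated, and their summed level fell from 1703 to 2865 CPM in non-senescent PTEC to 145 to 165 CPM in senescent PTEC. Of the proximal tubule markers, 6 of the 9 tested were down-regulated (summed over 15 markers, 309 to 1119 CPM and then 262 to 404 CPM), and Slc34a1, Slc22a6, Slc22a8 and Miox were under 0.1 CPM in every senescent culture. Of the fibroblast and pericyte markers, 7 of 9 tested were up-regulated (summed over 10 markers, 82.4 to 172 CPM and then 601 to 1289 CPM). Of the markers of other cells, those of the collecting duct, distal tubule and loop of Henle summed to 8.98 to 44.9 CPM and then 1.14 to 2.13 CPM, and the 3 tested were down-regulated. Leukocyte markers (71.3 to 106 CPM and then 51.4 to 208 CPM) had 2 of 6 tested down-regulated, and endothelial markers (80.1 to 242 CPM and then 66.1 to 249 CPM) 1 of 7. The part of these cells in the changes of the p53 genes was not tested.

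Other genes of the pathway were read from fixed lists. Of 19 regulators of p53 tested, 2 were up-regulated and 6 down-regulated (median log2 fold change -0.20), where 20.1% and 19.7% of all genes tested were. The largest changes were those of the checkpoint kinase gene Chek1 (log2 fold change -3.31 ± 0.251, adjusted p = 1.33e-05) and of Cdkn2a (log2 fold change 1.64 ± 0.204, adjusted p = 0.000236). Cdkn2a encodes both p16Ink4a and p19Arf, of which p19Arf restrains Mdm2. Counts per gene cannot tell their transcripts apart. Of 22 further targets of p53 tested, 7 were up-regulated and 5 down-regulated, beside the same shares of all genes. The median log2 fold change of these 22 was 0.13, against 0.81 for the 32 genes. By size these were led by the phosphatase gene Ptprv (log2 fold change 4.05 ± 0.456, adjusted p = 0.000133), the glutaminase gene Gls2 (log2 fold change -2.81 ± 0.291, adjusted p = 8.24e-05), the peptide transporter gene Tap1 (log2 fold change 1.68 ± 0.228, adjusted p = 0.000389) and the mitotic spindle gene Ckap2 (log2 fold change -1.64 ± 0.167, adjusted p = 7.39e-05). The first 2 were low, Ptprv at a mean of 0.186 CPM in non-senescent and 3.19 CPM in senescent PTEC, and Gls2 at 3.97 and 0.558 CPM. Cdkn1a, which encodes p21, was at 313 ± 75.4 CPM (mean ± SD, n = 4) and at 772 ± 115 CPM (log2 fold change 1.30 ± 0.193, adjusted p = 0.000602).

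The kidneys ask how the same genes differ with age. The 3 comparisons between ages share kidneys and are given side by side. Between 24 and 12 months, 6 of the 32 genes (18.8%) were up-regulated and 0 down-regulated, where 0.896% and 0.434% of the 17067 genes tested were. Of the 32 genes, 13 had every 24-month-old kidney above every 12-month-old one, and so had 13.5% of all genes tested. The median log2 fold change was 0.23, against 0.00 over all genes. Between 24 and 3 months, 2 of the 32 were up-regulated and 0 down-regulated (1.89% and 0.451% of all genes), and 9 had the older kidneys apart and higher (11.9% of all genes). Between 12 and 3 months, 0 of the 32 were up-regulated and 2 down-regulated (1.22% and 1.36% of all genes), and 7 had the 12-month-old kidneys apart and lower (9.4% of all genes). Where edgeR made 0 calls, DESeq2 also made 0. At an unadjusted p under 0.05 there was 1 lower gene (Gadd45a) between 24 and 12 months, 1 lower gene (Ak1) between 24 and 3 months and 0 higher genes between 12 and 3 months.

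Trp53 was at 19, 18.6 and 13.7 CPM in the 3 kidneys of 3 months, 23.2, 16.3 and 24.1 CPM at 12 months and 25.2, 22.3 and 22.4 CPM at 24 months. The oldest kidneys lay above the youngest without passing the test (log2 fold change 0.45 ± 0.192, adjusted p = 0.264). Mdm2 was at 40.7, 33.7 and 66.5 CPM at 3 months, 26.5, 46 and 28.4 CPM at 12 months and 35.4, 57.3 and 30.2 CPM at 24 months, and all ages overlapped. Mdm4 was at 17.3, 12.1 and 18.9 CPM at 3 months, 14.5, 34.8 and 12.4 CPM at 12 months and 9.71, 19 and 8.51 CPM at 24 months, with kidney 2 of 12 months the highest of the 9. None of these 3 core genes was called between ages with all kidneys and no block.

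The 6 genes that rose from 12 to 24 months came from 3 roles. Eda2r, the ectodysplasin receptor gene (chrX:97333840-97377216, - strand), was at 0.84, 0.41 and 1.03 CPM at 3 months, 0.503, 0.674 and 0.579 CPM at 12 months and 2.96, 4.67 and 2.38 CPM at 24 months. All 3 kidneys of 24 months lay above all others, 5.68-fold over 12 months (log2 fold change 2.51 ± 0.381, adjusted p = 0.0236) and 4.39-fold over 3 months (log2 fold change 2.13 ± 0.378, adjusted p = 0.0242). Psrc1 (chr3:108383839-108388231, + strand) was at 0.42, 0.225 and 0.585 CPM at 3 months, 0.382, 0.263 and 0.386 CPM at 12 months and 1.51, 2.36 and 1.35 CPM at 24 months. It too was higher in all kidneys of 24 months, against 12 months (log2 fold change 2.34 ± 0.384, adjusted p = 0.029) and against 3 months (log2 fold change 2.09 ± 0.384, adjusted p = 0.0283). Eda2r and Psrc1 both lost the call against 3 months with the replicate number as a block (adjusted p = 0.103 and 0.102). They also lost it with the ages of 3 and 24 months fitted alone (adjusted p = 0.0603 and 0.0623). Their log2 fold changes in these fits were 2.08 to 2.13. With all kidneys and genes of low counts filtered out, edgeR called no other of the 32 genes between 24 and 3 months. Without that filter edgeR also called Pmaip1 (log2 fold change 0.95, adjusted p = 0.0472). DESeq2 also called Ccng1, Plk2 and Pmaip1, with log2 fold changes of 0.58, 0.90 and 0.93. The levels of Eda2r and Psrc1 were low, at most 4.67 CPM.

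The TRAIL receptor gene Tnfrsf10b was at 2.99, 2.31 and 3.49 CPM at 3 months, 1.3, 1.96 and 1.25 CPM at 12 months and 4.23, 4.77 and 3.36 CPM at 24 months. It was lowest at 12 months and rose from there (log2 fold change 1.45 ± 0.255, adjusted p = 0.0363). The cyclin gene Ccng1 was at 273, 249 and 309 CPM at 3 months, 211, 237 and 220 CPM at 12 months and 390, 455 and 399 CPM at 24 months and rose likewise (log2 fold change 0.90 ± 0.141, adjusted p = 0.024). Pmaip1, the gene of Noxa, was at 4.7, 4.55 and 6.32 CPM at 3 months, 4.09, 4.85 and 3.94 CPM at 12 months and 9.61, 12.5 and 7.74 CPM at 24 months, and all kidneys of 24 months lay above the younger ones (log2 fold change 1.21 ± 0.219, adjusted p = 0.0402). The nuclease gene Aen was at 19, 20.9 and 18.9 CPM at 3 months, 12.2, 11.3 and 12.9 CPM at 12 months and 23.6, 28.5 and 22.7 CPM at 24 months. The 3 ages did not overlap. It fell from 3 to 12 months (log2 fold change -0.69 ± 0.137, adjusted p = 0.0381) and rose to 24 months (log2 fold change 1.04 ± 0.137, adjusted p = 0.0181). Ak1, the gene with the largest rise in PTEC, was at 22.6, 20.7 and 20.3 CPM at 3 months, 13.3, 13.8 and 14.3 CPM at 12 months and 15.3, 16.6 and 18.4 CPM at 24 months in kidneys. It was down-regulated between 3 and 12 months (log2 fold change -0.61 ± 0.125, adjusted p = 0.0402), and its value between 12 and 24 months did not pass (log2 fold change 0.28 ± 0.125, adjusted p = 0.334).

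Close to the threshold between 24 and 12 months stood 4 genes that were higher in every kidney of 24 months than in any of 12 months. Phlda3 was at 11.4, 6.88 and 18 CPM at 3 months, 5.13, 8.16 and 5.21 CPM at 12 months and 17.1, 20 and 21.7 CPM at 24 months (log2 fold change 1.67 ± 0.336, adjusted p = 0.052). Plk2 was lowest at 6 CPM in a kidney of 12 months and highest at 23.3 CPM in one of 24 months (log2 fold change 1.20 ± 0.271, adjusted p = 0.0729). Btg2 was at 22.9, 14.2 and 19.8 CPM at 3 months, 9.56, 12 and 11 CPM at 12 months and 61.6, 37.4 and 14.7 CPM at 24 months, widely spread at 24 months (log2 fold change 1.81 ± 0.436, adjusted p = 0.0893). Zmat3 was at 16, 23.6 and 12 CPM at 3 months, 16.7, 10.2 and 16.2 CPM at 12 months and 29.3, 28.5 and 26.8 CPM at 24 months (log2 fold change 0.97 ± 0.264, adjusted p = 0.123). Same-numbered kidneys of 12 and 24 months deviated together (r of 0.384, 0.557 and 0.172), but kidney 3 of 24 months was closer to another kidney of 12 months (r of 0.191). These are different mice, and the labels give no reason to pair them. The block by number within these ages was chosen after the data were seen. With it, 9 of the 32 genes were up-regulated in these 6 kidneys. These were the 6 above, Phlda3 (log2 fold change 1.69 ± 0.159, adjusted p = 0.000516), Plk2 (1.22 ± 0.168, adjusted p = 0.00259) and Zmat3 (1.0 ± 0.152, adjusted p = 0.00377). In the same paired fit Mdm4 (-0.67 ± 0.122, adjusted p = 0.00767) and Gadd45a (-0.65 ± 0.156, adjusted p = 0.0224) were down-regulated. With a block by number over the kidneys of all ages, none of these genes was called.

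The counts of calls rested on few mice. Between 24 and 12 months there were 0 calls without kidney 1, 2 or 3 of 12 months or kidney 1 or 2 of 24 months, 3 without kidney 3 of 24 months and 1 without kidney 1 of 3 months, though the log2 fold change of each called gene stayed positive (Ccng1 0.83 to 0.94, Psrc1 2.06 to 2.49, Pmaip1 1.02 to 1.36, Aen 0.93 to 1.10, Tnfrsf10b 1.34 to 1.69 and Eda2r 2.19 to 2.70). The remaining calls came without kidney 2 or 3 of 3 months. Over all 9 fits without 1 kidney, Aen was called in 4, Eda2r in 3 and Ccng1, Psrc1, Pmaip1 and Tnfrsf10b in 2 each. Between 24 and 3 months Psrc1 and Eda2r were both lost without kidney 1 of 3 months or kidney 1 or 2 of 24 months, and Psrc1 also without kidney 3 of 24 months. Between 12 and 3 months Aen was called in 1 of 9 such fits, without kidney 2 of 24 months, and Ak1 in 1 of 9, without kidney 2 of 3 months. Bax and Phlda3 were also called in the latter.

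**Figure D3:**
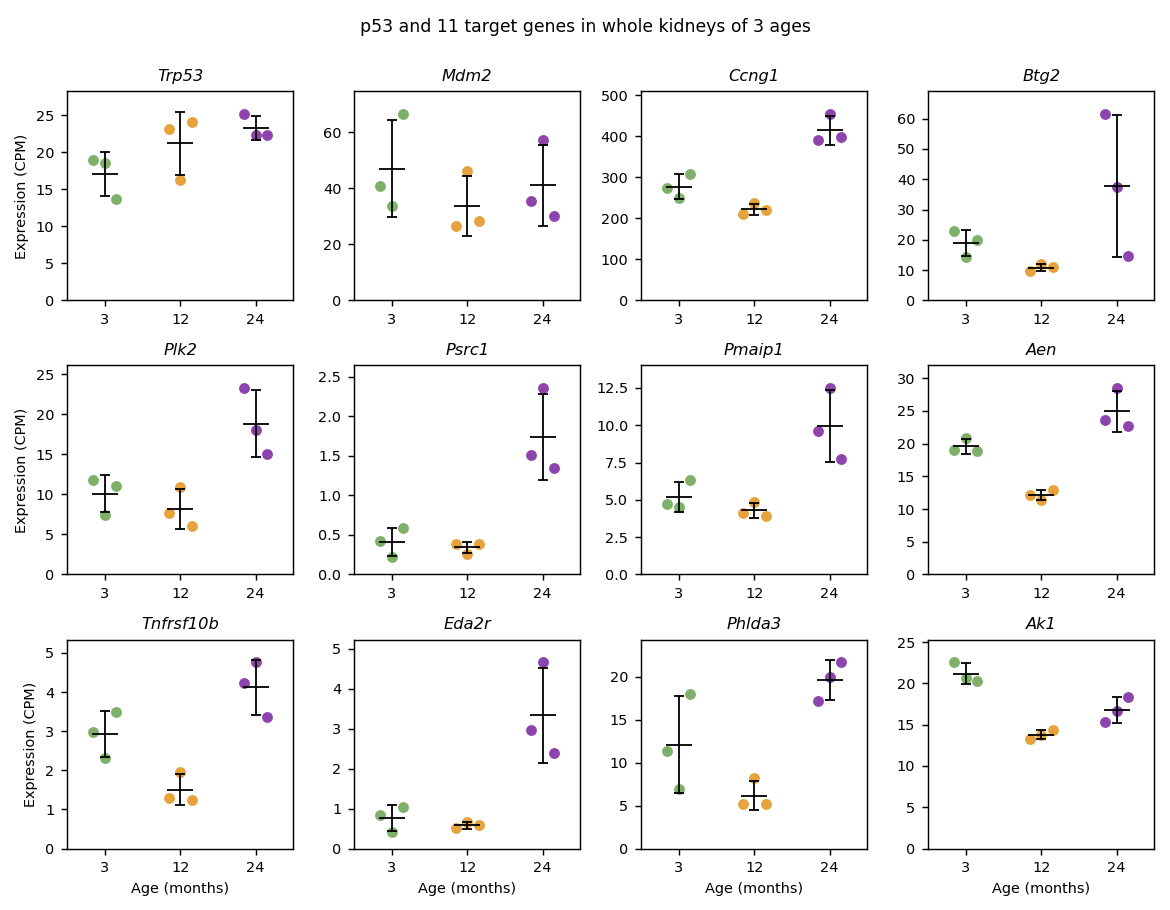
Expression in CPM (vertical axes, each from 0) of p53 and 11 of its targets in whole kidneys of 3, 12 and 24 months (horizontal axes). Points are single mice, and bars give the mean and SD of 3 mice. Eda2r, Psrc1 and Pmaip1 are highest in all 3 kidneys of 24 months, while Mdm2 overlaps between ages and Ak1 is lowest at 12 months.

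Further genes that rose in senescent PTEC were not called between ages by edgeR with all kidneys and no block. Fas was at 7.69, 5.96 and 13.4 CPM at 3 months, 8.6, 16 and 6.93 CPM at 12 months and 6.38, 9.89 and 6.13 CPM at 24 months and overlapped between ages. Plk3, which fell in PTEC, was at 3.2, 6.62 and 4.88 CPM at 3 months, 2.78, 2.42 and 2.14 CPM at 12 months and 4.67, 10.5 and 2.76 CPM at 24 months, with the 12-month-old kidneys below those of 3 months (log2 fold change -1.0 ± 0.459, adjusted p = 0.322). Gadd45a was at 31.3, 22.8 and 33 CPM at 3 months, 41, 38.9 and 22.5 CPM at 12 months and 18.5, 28.6 and 17.6 CPM at 24 months, and its overlapping values gave no call at 24 against 12 months without the block, unlike the paired fit (log2 fold change -0.66 ± 0.279, adjusted p = 0.307). Bbc3, the gene of Puma, was at 2.89, 1.64 and 1.78 CPM at 3 months, 2.22, 1.99 and 2.08 CPM at 12 months and 2.29, 2.6 and 2.41 CPM at 24 months. Trp53inp1 was at 21.2, 23.1 and 21.1 CPM at 3 months, 21.5, 25 and 19.4 CPM at 12 months and 29.2, 27.6 and 21.6 CPM at 24 months. Perp, abundant in kidneys, was at 100, 80.3 and 123 CPM at 3 months, 85.7, 110 and 90 CPM at 12 months and 75.5, 87.1 and 79.6 CPM at 24 months. The absolute log2 fold changes of these 3 death genes were at most 0.32 in the 3 comparisons.

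Sesn2, the sestrin gene, was at 40.2, 41.7 and 22.3 CPM at 3 months, 76.2, 33.4 and 50.9 CPM at 12 months and 73.5, 44 and 54.2 CPM at 24 months, above the youngest kidneys at 24 months but without a call (log2 fold change 0.72 ± 0.346, adjusted p = 0.304). Dcxr was at 197, 186 and 177 CPM at 3 months, 210, 181 and 214 CPM at 12 months and 191, 183 and 220 CPM at 24 months, with an overlap of all ages. The repair gene Polk was at 9.11, 7.15 and 10.6 CPM at 3 months, 6.07, 9.33 and 5.52 CPM at 12 months and 7.83, 9.64 and 6.48 CPM at 24 months. Xpc was at 33.9, 51.1 and 24.3 CPM at 3 months, 45.9, 25.8 and 49 CPM at 12 months and 50.8, 34.7 and 49.7 CPM at 24 months. Ercc5 was at 11.3, 10.9 and 12.3 CPM at 3 months, 12.8, 11.9 and 12.7 CPM at 12 months and 11.5, 12.6 and 11.7 CPM at 24 months, the tightest of the repair genes, with log2 fold changes between -0.06 and 0.11. None of the 5 repair genes was called between ages with all kidneys. Of these, Ddb2 was widest, from 1.46 to 6.17 CPM over the 9 kidneys, and Rrm2b ranged from 21.1 to 42.1 CPM. Bax was at 41.1, 27.1 and 43.1 CPM at 3 months, 19.8, 24.3 and 19.4 CPM at 12 months and 24.7, 30.6 and 26.7 CPM at 24 months, lower in all kidneys of 12 months than in those of 3 months (log2 fold change -0.81 ± 0.198, adjusted p = 0.0706). Ei24 stayed between 142 and 164 CPM, Pidd1 between 1.96 and 3.16 CPM, Sesn1 between 9.11 and 14 CPM and Ddit4 between 10.7 and 24 CPM.

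Single kidneys stood out over many of the 32 genes. Kidney 2 of 12 months was the highest of its age for 18 genes, kidney 2 of 24 months for 21 and kidney 3 of 3 months for 17, and kidney 2 of 3 months was the lowest of its age for 21 and kidney 3 of 24 months for 19. Kidneys 2 and 3 of 3 months correlated least with each other, so each was left out in turn together with kidney 2 of 12 months. Without kidney 3 of 3 months and kidney 2 of 12 months together, Ccng1 (0.95), Tnfrsf10b (1.70) and Phlda3 (1.93) were called between 24 and 12 months, by their log2 fold changes, and Psrc1 (2.44) and Eda2r (2.43) between 24 and 3 months. Without kidney 2 of 3 months in place of kidney 3, the calls were more. Between 24 and 12 months 9 genes were up-regulated, which were the 6 above, Phlda3 (log2 fold change 1.92 ± 0.22, adjusted p = 0.0149), Plk2 (1.46 ± 0.212, adjusted p = 0.0222) and Zmat3 (0.78 ± 0.151, adjusted p = 0.0485). Between 24 and 3 months 7 were up-regulated (Psrc1, Eda2r, Ccng1, Plk2, Pmaip1, Zmat3 and Trp53) and 2 down-regulated (Bax and Ddb2), with Trp53 at a log2 fold change of 0.51 ± 0.164 (adjusted p = 0.0472). Between 12 and 3 months 6 were down-regulated, namely Aen, Ak1, Bax, Tnfrsf10b, Phlda3 and Polk. Called in both fits were Psrc1 and Eda2r between 24 and 3 months and Ccng1, Tnfrsf10b and Phlda3 between 24 and 12 months. The other calls in each comparison depended on which kidney of 3 months was left out.

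Proliferation markers moved with age in the same kidneys. Between 24 and 12 months 5 of 14 were up-regulated, between 24 and 3 months 4 were up-regulated and between 12 and 3 months 1 was down-regulated, and their summed level was 84.2 to 112 CPM at 3 months, 72.9 to 83.3 CPM at 12 months and 89.3 to 139 CPM at 24 months. Leukocyte markers summed to 109 to 175, 160 to 281 and 193 to 299 CPM, with 4 of 17 up-regulated between 24 and 3 months and 1 between 12 and 3 months. Markers of the collecting duct, distal tubule and loop of Henle summed to 4329 to 5791 CPM at 3 months, 3201 to 4032 CPM at 12 months and 4500 to 5892 CPM at 24 months, so that the kidneys of 12 months lay below all others, and 1 of 9 was down-regulated between 3 and 12 months. Proximal tubule markers summed to 56759 to 60152, 59907 to 67635 and 51543 to 57444 CPM, with 3 of 15 up-regulated between 24 and 3 months. Endothelial markers summed to 243 to 308, 368 to 400 and 205 to 373 CPM, and fibroblast and pericyte markers to 197 to 224, 207 to 224 and 250 to 301 CPM, and none of these 7 and 10 genes was called. No defining marker of the tubular, endothelial, fibroblast or leukocyte lists was under 0.1 CPM in every kidney of an age. The part of these cells in the p53 genes was not tested.

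Of 18 regulators of p53 tested in kidneys, 1 was called over the 3 comparisons. Trp63, a relative of Trp53, was down-regulated between 3 and 12 months (log2 fold change -2.12 ± 0.405, adjusted p = 0.0365). Of 20 further targets, 4 were up-regulated between 12 and 24 months, namely Cdkn1a (log2 fold change 2.73 ± 0.215, adjusted p = 0.00391), the stress cytokine gene Gdf15 (log2 fold change 2.63 ± 0.289, adjusted p = 0.0163), Ckap2 (log2 fold change 2.28 ± 0.429, adjusted p = 0.0443) and Gtse1 (log2 fold change 1.60 ± 0.279, adjusted p = 0.0359). Cdkn1a was at 12.2 ± 0.729 CPM (mean ± SD, n = 3) at 3 months, 4.21 ± 0.949 CPM at 12 months and 28.0 ± 5.49 CPM at 24 months. Levels of Ckap2 and Gtse1 were low, at means of 0.414 and 0.528 CPM at 12 months and 2.02 and 1.6 CPM at 24 months. Between 12 and 3 months Cdkn1a, Gdf15 and Sfn were down-regulated, and between 24 and 3 months Cdkn1a, Gdf15 and Lif were up-regulated. Lif was low, at a mean of 0.173 CPM at 3 months and 1.04 CPM at 24 months. Of all genes tested, 0.896% were up-regulated between 24 and 12 months and 1.89% between 24 and 3 months, and 1.36% were down-regulated between 12 and 3 months.

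The PTEC and kidney experiments share no library. Of the 6 genes up-regulated between 24 and 12 months, 6 were also up-regulated in senescent PTEC (Ccng1, Psrc1, Pmaip1, Aen, Tnfrsf10b and Eda2r), which was 28.6% of the 21. Over all 14477 genes tested in both, 34 of the 134 genes up-regulated in these kidneys (25.4%) were up-regulated in PTEC, or 1.25% of the 2711. But 21 of the 32 genes (65.6%) were up-regulated in PTEC, so that on average most of any 6 of them would be shared. Likewise the 28.6% stands beside the 18.8% of the 32 that rose in these kidneys. Between 24 and 3 months the 2 up-regulated genes were both shared (27.4% over all genes), and between 12 and 3 months 0 of the 32 were up-regulated. The genes with the largest values differed between the 2 settings. Ak1 led in PTEC (log2 fold change 2.79) and stood at 0.28 between 24 and 12 months, -0.34 between 24 and 3 months and -0.61 between 12 and 3 months, whereas Psrc1 stood at 0.90 in PTEC and 2.34 in kidneys of 24 against 12 months, and Eda2r at 1.60 and 2.51. The difference between settings was not tested, since cultures and whole kidneys were fitted apart.

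**Figure D4:**
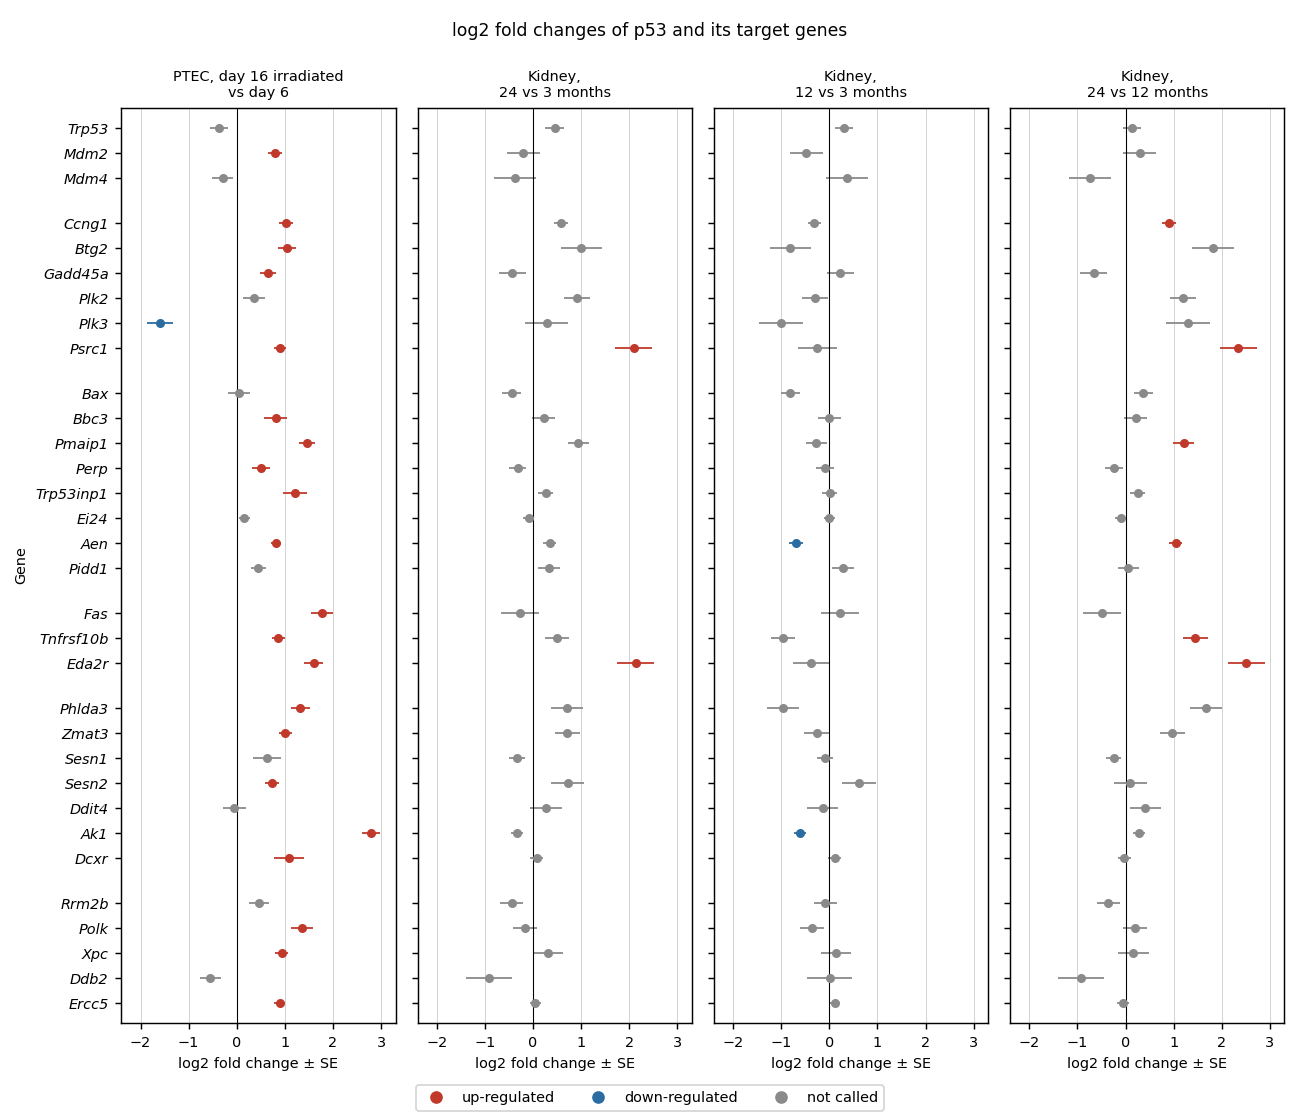
Log2 fold changes with SE (horizontal axes) of the 32 genes (rows, grouped by role) in PTEC and in the 3 comparisons of kidney ages. Red points are up-regulated, blue ones down-regulated and grey ones not called by edgeR. In PTEC 21 points are red and 1 is blue, and between 24 and 12 months 6 are red, led by Eda2r and Psrc1.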

How the data were processed

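RNA from 8 PTEC cultures and 9 kidneys had been sequenced by the authors from stranded poly(A) libraries in paired-end reads and processed with nf-core/rnaseq. The deposited values are unnormalized counts for each gene. Which aligner and counter were run, and whether strand was used, is not given in the sources used here, so that reads of overlapping genes on opposite strands could be mixed. GENCODE release M 18 of GRCm38 is named in the study, but the libraries were counted on 3 gene sets. Release M 21 gave the symbols and positions, with identifiers matched without their version.

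The analysis was run in R 4.3.3, using edgeR 4.0.16 (TMM scaling, filterByExpr, robust quasi-likelihood test, Benjamini-Hochberg adjustment over all genes tested) and with DESeq2 1.42.0 as an alternative. Calls required a log2 fold change over 0.5 in size and an adjusted p below 0.05. PTEC and kidneys were fitted apart, and the 3 ages shared 1 estimate of the spread. The method was tested on simulated data. Python 3.11.15, pandas 2.3.3, numpy 2.4.6 and matplotlib 3.10.9 were used for tables and figures. TPM used the summed exon length of each gene.

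The genes and lists were chosen with earlier results of these data known. All 32 genes are named, with values in every library for those called and for Trp53, Mdm2 and Mdm4. Of the listed other genes, at most 6 per comparison are named by size, and Cdkn1a in PTEC was added after its values were seen.

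Labels number the PTEC of both groups 1 to 4. Cultures with the same number deviated from their group means with a correlation r of 0.284, 0.382, 0.614 and 0.186, which met the criterion for pairs (r over 0.1 in each). The reported fits had no block, and blocked values are given where they changed a call. Same-numbered kidneys of 12 and 24 months met this criterion (r from 0.172 to 0.557), but those of 3 months with either did not (r from -0.701 to -0.0336). Kidney 3 of 24 months correlated more with another kidney of 12 months (r of 0.191), and the labels give no reason to pair these mice.

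Alternatives were other scalings, no filter, DESeq2, other fold thresholds, a replicate block, the compared ages alone and each library left out in turn. The block within the 2 older ages and the fits without 2 libraries were chosen after the data were seen.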

Additional observations from a re-analysis of the deposited data

Results flagged for a closer look

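The spread within a group was examined in the 2 PTEC groups for each of the 32 genes, or 64 groups of 4 cultures, and 4 held a culture far from the other 3 by Dixon's criterion. Chance flags about 1 in 20 groups. All 4 were replicate 3 of its group. Bax was at 179 CPM in replicate 3 of day 6, where the others ranged from 87.2 to 101 CPM, and at 151 CPM in replicate 3 of day 16, where the others ranged from 109 to 112 CPM. Bbc3 was at 22.9 CPM in replicate 3 of day 6, where the others ranged from 11 to 12.5 CPM, and at 29.6 CPM in replicate 3 of day 16, where the others ranged from 23.5 to 24.3 CPM. Without both cultures 20 of the 32 genes were up-regulated.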

How the results depend on the processing

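In PTEC, 21 genes were up-regulated and the alternatives gave 19 to 22, apart from a log2 fold change threshold of 1, which gave 11. The 1 down-regulated gene became 2 with DESeq2, with the replicate block and without both replicate 3 cultures, and 1 to 2 with single cultures left out. Between 24 and 3 months the 2 up-regulated genes became 3 with no filter, 5 with DESeq2, 0 with the replicate block, 0 with the compared ages alone and 0 to 2 with single kidneys left out. Between 12 and 3 months the 2 down-regulated genes became 1 with upper quartile scaling, 4 with DESeq2, 0 with no filter, 0 with the replicate block, 0 with the compared ages alone, 0 without kidney 3 of 3 months and kidney 2 of 12 months, 0 at a threshold of 1 and 0 to 3 with single kidneys left out. Between 24 and 12 months the 6 up-regulated genes became 3 with upper quartile scaling, 4 with total counts only (without Pmaip1 and Tnfrsf10b), 5 with the compared ages alone (again without both, and with Phlda3), 5 at a threshold of 1, 8 with no filter, 10 with DESeq2, 0 with the replicate block over all 9 kidneys, 9 with the replicate block and the compared ages alone, 3 without the same 2 kidneys and 0 to 8 with single kidneys left out. The 0 down-regulated genes became 2 in the paired fit of these ages. Without kidney 2 of 3 months and kidney 2 of 12 months 24 against 3 months gave 7 genes up and 2 down, 12 against 3 months gave 6 down and 24 against 12 months gave 9 up. The cause of these shifts was not tested. No called gene changed sign under the alternatives run. Over the called genes, 167 values in PTEC stayed past the threshold with single cultures left out and 9 did not, while between 24 and 12 months 15 did and 39 did not. Changes of genes under about 1 CPM, such as Psrc1 and Eda2r in young kidneys, rest on few reads.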
